A study of Arabidopsis thaliana with 6 samples.

Results

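Of the 32548 gene rows in the deposited expression table, 10 encode the core regulators of the iron deficiency response in Arabidopsis thaliana, and these 10 were followed across wild-type and mutant seedlings. They were taken by gene identifier and comprise 7 basic helix-loop-helix (bHLH) transcription factor genes, namely BHLH38 (AT3G56970), BHLH39 (AT3G56980), BHLH100 (AT2G41240), BHLH101 (AT5G04150), FIT (AT2G28160), PYE (AT3G47640) and ILR3 (AT5G54680). The remaining 3 encode BRUTUS-type ubiquitin ligases, BTS (AT3G18290), BTSL1 (AT1G74770) and BTSL2 (AT1G18910). The rule is a list of identifiers and sets no threshold on expression, although it was drawn up with earlier results of these data known. All 10 had reads in every library and passed the filter on low values, with 55 to 7573 reads per gene and library.

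Plants that run short of iron switch on a cascade of bHLH factors. ILR3 and its close relatives act at the top and activate the subgroup Ib genes BHLH38, BHLH39, BHLH100 and BHLH101, together with PYE. In roots a subgroup Ib protein pairs with FIT, and the pair turns on the ferric reductase FRO2 and the iron transporter IRT1. PYE is a repressor that restrains nicotianamine synthesis and other iron distribution genes. BTS carries iron-binding haemerythrin domains and a RING domain and marks ILR3-type factors for degradation, while BTSL1 and BTSL2 act mainly in roots, where FIT is among their targets. The subgroup Ib genes and BTS are themselves induced by iron shortage, so their transcripts are widely used as readouts of iron status.

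Whole seedlings were harvested at 12 days after growth on Murashige and Skoog plates at 22 °C with 16 h of light and 8 h of darkness, with no treatment. Total RNA was sequenced as single-end 50-base reads from 3 genotypes with 2 libraries each: the Col-0 wild type, hac1hac5 (hac1-/-hac5-/-) and med8med25 (med8-/-med25-/-). HAC1 and HAC5 are histone acetyltransferases of the CBP/p300 family, and MED8 and MED25 are subunits of Mediator, which links transcription factors to RNA polymerase II. The alleles are not given in the sources used here, no group received an iron treatment, and iron content was not measured. Whether the 2 libraries of each genotype stem from separate plantings is not stated, and p-values therefore measure the spread between these 6 samples only, part of which may be technical.

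Depth was 24.9 to 36.8 M reads assigned to genes per library, recovered from the deposited values. These values, called normalized counts here, are read counts that the authors adjusted to a common library size. That size is put at 32.6 M here by a scaling convention, since the values fix only the ratios of library sizes. Among the 4 targeted genes, MED8 and MED25 were called lower in med8med25 (log2 changes -1.43 and -2.15), whereas HAC1 was lower by a small margin in hac1hac5 (-0.41) and HAC5 was not called there (-0.38). Since the alleles are not given, it is not known whether these transcripts should be lower, and hac1hac5 is used here as a label of genotype. Green tissue, root hair and other root markers were all detected, with 0 of 24 at 0 in any genotype, as in whole seedlings.

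Upstream sequence was examined first because bHLH proteins bind the E-box, CANNTG, of which the G-box, CACGTG, is the best-known form. For each gene the 250 bases before its annotated start were read 5′ to 3′ on the gene's strand from the TAIR10.1 genome and RefSeq annotation, and none of the 10 windows overlapped another gene. Both motifs read the same on either strand, and each G-box is also an E-box. The windows of the 4 subgroup Ib genes, whose transcripts moved most, are printed beside that of BTS, which held the most G-boxes, with the G-box in capitals. They lie at chr3:6273716-6273965 (plus strand) for BTS, chr3:21085246-21085495 (minus) for BHLH38, chr3:21087711-21087960 (minus) for BHLH39, chr2:17199455-17199704 (minus) for BHLH100 and chr5:1139634-1139883 (minus) for BHLH101.
BTS: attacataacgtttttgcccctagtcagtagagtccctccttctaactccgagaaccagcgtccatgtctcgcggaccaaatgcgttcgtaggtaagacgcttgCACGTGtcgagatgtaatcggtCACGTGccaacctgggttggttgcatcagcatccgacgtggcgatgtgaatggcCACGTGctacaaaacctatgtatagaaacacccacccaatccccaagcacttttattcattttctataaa
BHLH38: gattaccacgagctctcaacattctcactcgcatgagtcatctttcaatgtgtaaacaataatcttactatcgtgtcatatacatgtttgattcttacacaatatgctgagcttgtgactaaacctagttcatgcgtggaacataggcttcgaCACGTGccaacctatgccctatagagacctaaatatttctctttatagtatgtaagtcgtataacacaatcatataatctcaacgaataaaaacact
BHLH39: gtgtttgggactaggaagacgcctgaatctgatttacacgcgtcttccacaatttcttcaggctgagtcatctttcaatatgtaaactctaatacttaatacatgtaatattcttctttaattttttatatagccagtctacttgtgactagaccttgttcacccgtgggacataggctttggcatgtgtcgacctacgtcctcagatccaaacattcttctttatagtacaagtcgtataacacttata
BHLH100: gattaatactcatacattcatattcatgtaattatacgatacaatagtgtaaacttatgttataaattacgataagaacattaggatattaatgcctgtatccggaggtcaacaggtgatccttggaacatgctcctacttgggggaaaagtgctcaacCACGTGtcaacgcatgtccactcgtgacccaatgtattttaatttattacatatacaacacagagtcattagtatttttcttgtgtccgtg
BHLH101: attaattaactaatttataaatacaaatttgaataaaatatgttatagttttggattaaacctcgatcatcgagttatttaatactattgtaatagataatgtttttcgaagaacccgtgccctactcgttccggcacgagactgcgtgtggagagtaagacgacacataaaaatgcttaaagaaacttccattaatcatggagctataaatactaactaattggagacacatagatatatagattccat

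BTS held 3 G-boxes, starting 146, 124 and 70 bases before the gene. Only 27 of 27443 gene starts in the genome, or 0.098%, had 3 or more in a window of this length, and 6.5% had at least 1. BHLH38 and BHLH100 each held 1 G-box, at 97 and 91 bases. No G-box was present in the windows of BHLH39, BHLH101, FIT, PYE, ILR3, BTSL1 or BTSL2. An E-box of any kind occurred in 55.3% of all windows and in 8 of the 10 here, the exceptions being BHLH101 and PYE. These are matches of letters and say nothing of which factor binds.

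**Figure D1:**
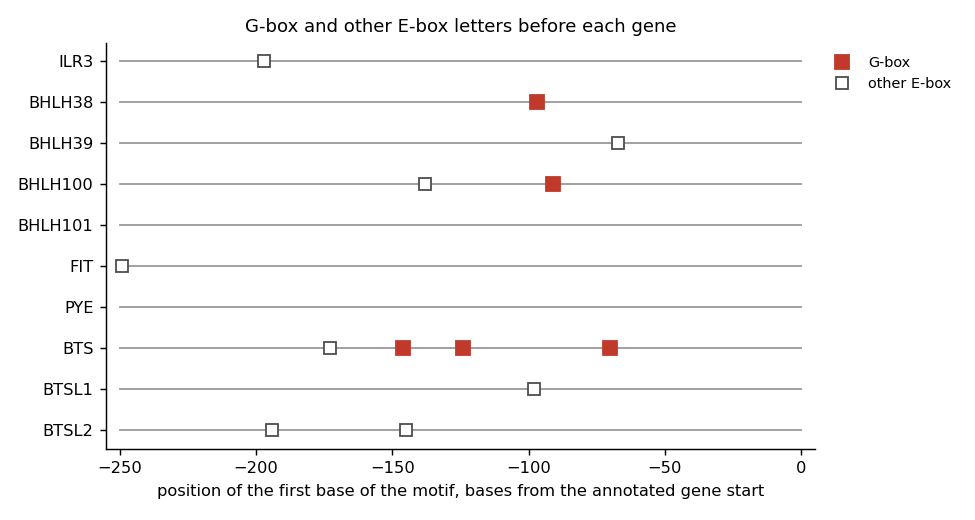
Position of G-box (filled) and other E-box (open) letters in the 250 bases before each iron regulator, in bases from the annotated start at 0. BTS carries 3 G-boxes, BHLH38 and BHLH100 carry 1 each, and the other 7 genes carry none.

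BHLH38 and BHLH39 are neighbours on chromosome 3, on the same strand with 1144 bases and no gene between them. Their coding sequences were 84.8% identical, the highest identity among the 6 subgroup Ib pairs. The lowest, 61.1%, was between BHLH38 and BHLH101. Their upstream windows also aligned, with 76.3% identity over 215 bases. At the place of the BHLH38 G-box the BHLH39 window carried a CATGTG hexamer, a difference of C3T counted from 1 at the hexamer's 5′ end. BTSL1 and BTSL2 were 79.0% identical in coding sequence, against 62.3% and 62.7% for each with BTS. Despite this similarity, every 50-base window lying within an exon of the 10 genes was unique in the genome. Exact reads of this length within an exon could thus be assigned to 1 place. Windows across exon junctions were not examined.

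Overlap with other genes touched BHLH38 most. Only 60.8% of its 50-base windows were free of a neighbour, the phosphatidylinositol phosphate kinase gene PIP5K4 on the opposite strand, and the strand setting of the counting is not given in the sources used here. BTSL1, BHLH101, ILR3 and BTSL2 were free over 88.1%, 91.6%, 94.0% and 96.0% of their windows, and the other 5 genes over 100%. PIP5K4 reached 127.5 and 149.0 normalized counts in the wild type, while hac1hac5 gave 177.0 and 173.0 and med8med25 gave 116.8 and 161.7. PIP5K4 was not lower in hac1hac5, but how the overlap entered the count of BHLH38 was not tested.

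Expressed per kilobase of exon, the 10 genes spanned a wide range. In Col-0 the mean level ran from 3047 normalized counts per kb for ILR3 and 1578 for BTS down to 87.6 for FIT. Between these lay BHLH100 (735.0), BHLH38 (547.7), PYE (499.7), BHLH39 (452.4) and BHLH101 (440.9), 5 neighbours in the order whose libraries overlapped. BTSL1 (176.2) and BTSL2 (138.9) followed, each apart from its neighbours.

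The order differed in the mutants. In hac1hac5 ILR3 (2902 per kb), BTS (689.8) and PYE (352.8) led and were apart. The other 7 formed a chain of overlapping neighbours from FIT at 141.8 to BHLH101 at 45.2, so that FIT, last in Col-0, took rank 4 of 10. In med8med25 the order resembled Col-0, with ILR3 at 2747, BTS at 1462, BHLH38 at 801.9 and FIT again last at 131.5.

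**Figure D2:**
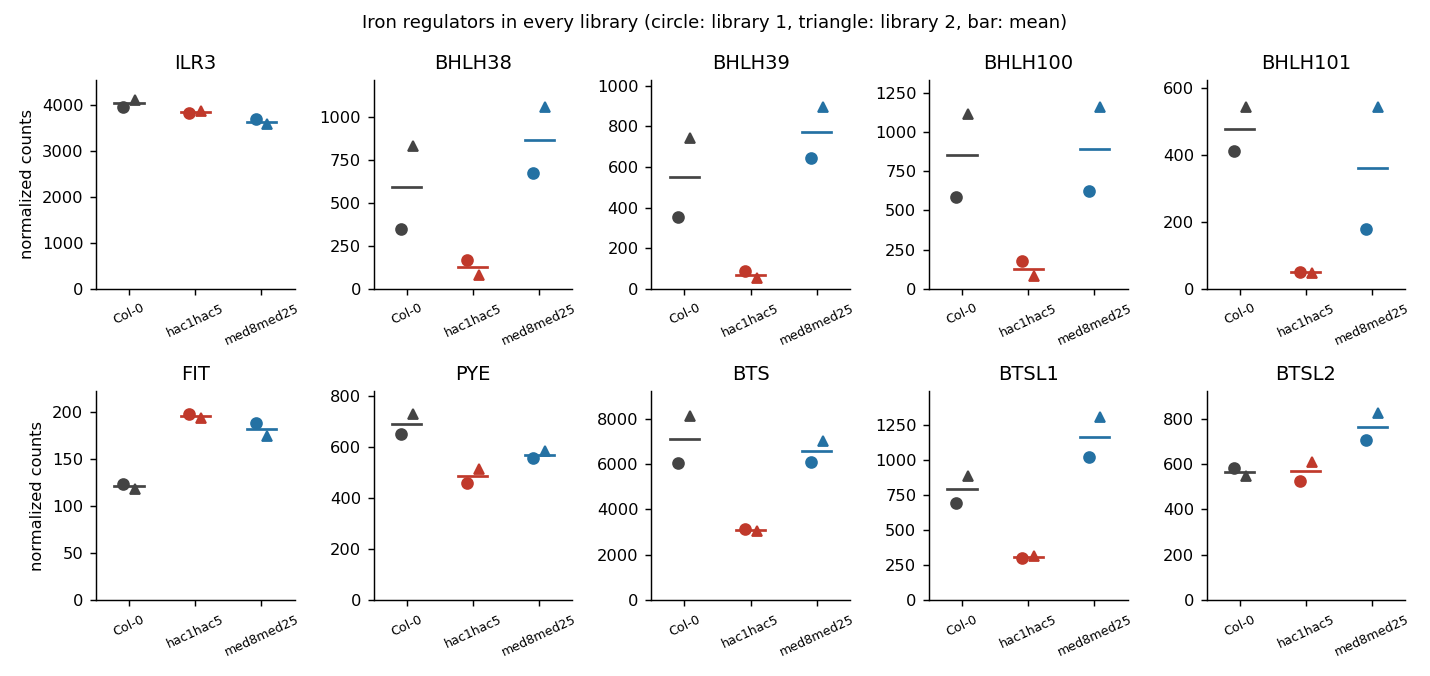
Normalized counts (linear axes starting at 0) of the 10 iron regulators in each library of Col-0, hac1hac5 and med8med25, with circles for library 1, triangles for library 2 and bars for the mean. The subgroup Ib genes, BTS and BTSL1 are low in both hac1hac5 libraries, ILR3 is nearly level, and FIT is lowest in Col-0.

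The first comparison set hac1hac5 against the wild type. The 4 subgroup Ib transcripts were 4.65 to 9.5 times lower in hac1hac5 than in Col-0, BTS and BTSL1 were lower by 2.26 and 2.55 times, and PYE by 1.42 times, whereas FIT was 1.61 times higher. ILR3 and BTSL2 were not called. In all, 7 of the 10 were called lower and 1 higher (limma on log2(normalized count + 1), Benjamini-Hochberg adjusted p under 0.05 over 23898 genes). Of all genes tested, 38.4% were called in this comparison, 21% lower and 17.4% higher, and the median log2 change was -1.26 over the 10 and -0.02 over all genes. A call with a drop of at least 1 on the log2 scale was made for 6 of the 10 and for 5.53% of all genes. Libraries of the genotypes did not overlap for 9 of the 10, where 73.5% of all genes were so separated. In whole seedlings, fewer cells of a type and less RNA per cell cannot be told apart.

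ILR3, the activator at the top of the cascade, had 3957 and 4099.6 normalized counts in the wild type, and hac1hac5 gave 3819 and 3854. The values lay close together, and the log2 change was -0.07 (95% interval -0.22 to 0.08, limma adjusted p = 0.44). Its lower bound lay above the upper bound of every subgroup Ib interval given below.

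Among the subgroup Ib genes, partners of FIT, BHLH38 measured 351.1 and 834.2 normalized counts in the wild type, and hac1hac5 gave 170.1 and 78.5. BHLH39 measured 355.0 and 744.3 in the wild type against 86.4 and 51.7. Both hac1hac5 libraries were below both Col-0 libraries for each gene, although the Col-0 libraries themselves were far apart. The log2 changes were -2.22 (SE 0.45, limma adjusted p = 0.0052) for BHLH38 and -2.92 (SE 0.35, adjusted p = 3.6e-04) for BHLH39.

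BHLH100 had 586.1 and 1115 normalized counts in the wild type, hac1hac5 gave 175.5 and 79.3, and this was a log2 change of -2.77 (SE 0.43, limma adjusted p = 0.0014). BHLH101 had 411.5 and 543.6 in the wild type, where hac1hac5 gave 50.6 and 47.3. It showed the largest drop of the 10, -3.25 (SE 0.42, limma adjusted p = 5.4e-04). Within Col-0 and within hac1hac5 its libraries agreed more closely than those of the other 3, though not within med8med25. The 95% intervals of the 4 changes overlapped, from -3.25 to -1.19 for BHLH38 to -4.21 to -2.28 for BHLH101.

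The call for BHLH38 rested in part on 1 library. Without the second hac1hac5 library its log2 change was -1.66 with limma adjusted p = 0.0504, without the second Col-0 library it was -1.59 with adjusted p = 0.033, and without the first it was -2.84. Without any 1 of the 6 libraries, BHLH39, BHLH100 and BHLH101 stayed called, at -3.46 to -2.39, -3.33 to -2.2 and -3.45 to -3.05. For BHLH100 the value nearest 0 came without the second hac1hac5 library.

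FIT, which drives root iron uptake, was the 1 member that rose. Wild-type libraries held 123.7 and 118.1 normalized counts, and hac1hac5 libraries held 197.7 and 193.7. The libraries of each genotype agreed closely and the genotypes were well apart, with a log2 change of 0.69 (SE 0.13, limma adjusted p = 0.0039).

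PYE, the repressor of iron distribution genes, had 651.3 and 732.8 normalized counts in the wild type, and hac1hac5 gave 461.0 and 516.2. The drop was modest, -0.50 on the log2 scale (SE 0.10, limma adjusted p = 0.0048). Without the second Col-0 library it was -0.42 with adjusted p = 0.063.

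BTS, the ligase that removes ILR3-type factors, had 6057 and 8127 normalized counts in the wild type, and hac1hac5 gave 3149 and 3052. BTSL1, its root relative, had 696.6 and 889.2 in the wild type, where hac1hac5 gave 303.2 and 312.6. For both genes the hac1hac5 libraries nearly coincided and lay far below Col-0. The log2 changes were -1.18 (SE 0.13, limma adjusted p = 2.5e-04) for BTS and -1.35 (SE 0.14, adjusted p = 1.9e-04) for BTSL1.

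BTSL2, the closest relative of BTSL1, had 583.8 and 545.3 normalized counts in the wild type, and hac1hac5 gave 525.0 and 609.3. These libraries overlapped, and the log2 change was 0.00 (95% interval -0.25 to 0.26, limma adjusted p = 0.98). The interval of BTSL1, -1.68 to -1.02, lay wholly below it, although the difference between the pair was not itself tested.

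**Figure D3:**
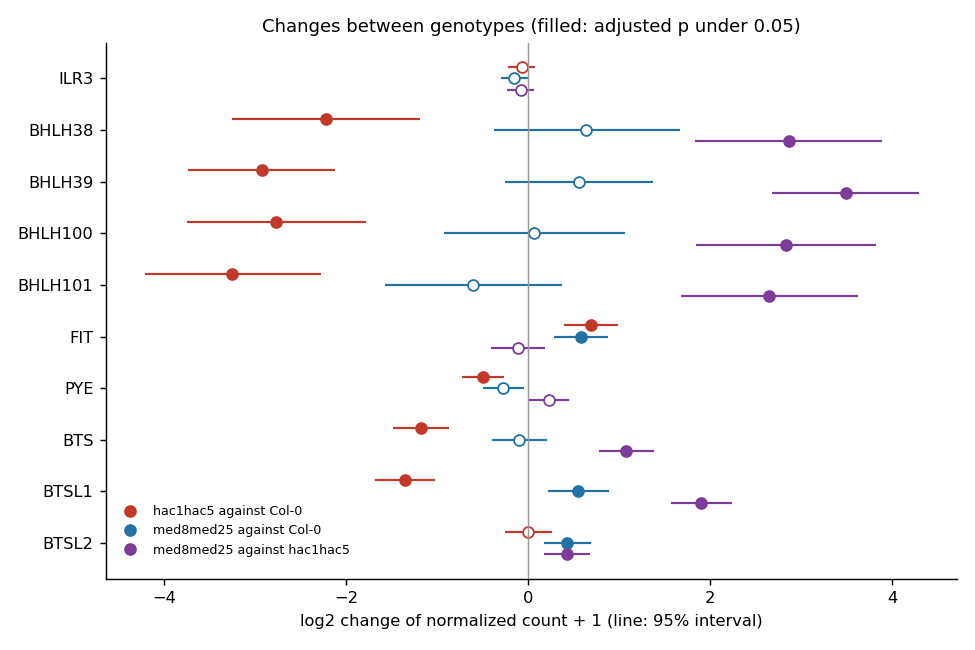
Log2 changes of the 10 iron regulators with 95% intervals (lines) for hac1hac5 against Col-0, med8med25 against Col-0 and med8med25 against hac1hac5, filled where the limma adjusted p was under 0.05. The 4 subgroup Ib genes sit between -3.25 and -2.22 in hac1hac5 and have wide intervals around 0 in med8med25.

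The second comparison set med8med25 against the wild type. In med8med25 none of the 10 was called lower than in Col-0 by limma, and the same count of 0 came from voom. At an unadjusted p under 0.05 PYE, at -0.28, was the 1 lower gene. FIT, BTSL1 and BTSL2 were called higher, by 1.5, 1.47 and 1.35 times. Of all genes tested 26.6% were called, 14.3% lower and 12.3% higher. The 3 of 10 were near the share called in either direction, but all 3 were higher, where the share was 12.3%. The median log2 change was 0.25 over the 10 and 0.0 over all genes, and libraries did not overlap for 5 of the 10 and for 65% of all genes. Both mutant comparisons share the Col-0 libraries.

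FIT stood at 188.5 and 174.4 normalized counts in med8med25, against 123.7 and 118.1 in Col-0. These were above both wild-type libraries, with a log2 change of 0.58 (SE 0.13, limma adjusted p = 0.014). BTSL1 stood at 1022 and 1306 against 696.6 and 889.2 in Col-0, higher by 0.55 (SE 0.14, adjusted p = 0.025). BTSL2 stood at 703.4 and 822.3 against 583.8 and 545.3, higher by 0.43 (SE 0.11, adjusted p = 0.024). All 3 genes had both mutant libraries above both wild-type ones.

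These 3 calls depended on single libraries. Without the first Col-0 library none of the 10 was called, with adjusted p = 0.073 for FIT, 0.18 for BTSL1 and 0.087 for BTSL2. Without the second Col-0 library BTSL1 alone was called (adjusted p = 0.03), with 0.1 for FIT and 0.16 for BTSL2. Without the second med8med25 library BTSL1 (adjusted p = 0.083) and BTSL2 (0.073) lost their calls, and FIT and BHLH101 were called.

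The subgroup Ib genes differed between the 2 med8med25 libraries, BHLH39 least and BHLH101 most. BHLH38 measured 677.0 and 1058 normalized counts there, and BHLH39 measured 645.5 and 893.0. Their log2 changes from Col-0 were 0.64 (95% interval -0.38 to 1.67, limma adjusted p = 0.33) and 0.56 (-0.25 to 1.37, adjusted p = 0.28). Leaving out 1 library moved them between 0.02 and 1.27 and between 0.03 and 1.09, lowest without the first Col-0 library and highest without the second, and neither was called. BHLH100 measured 620.3 and 1157, with a change of 0.07 (-0.92 to 1.06, adjusted p = 0.93). The med8med25 and Col-0 libraries overlapped for all 4 genes, and the intervals leave room for changes of 2-fold or more in at least 1 direction.

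BHLH101 differed from the other 3 in its libraries. It measured 179.1 in the first med8med25 library and 543.1 in the second, the latter level with the higher Col-0 value of 543.6. The log2 change was -0.60 (95% interval -1.57 to 0.37, limma adjusted p = 0.33). Without the second library it was -1.4 (adjusted p = 0.0017), and without the first it was 0.2 (adjusted p = 0.48), so its direction turned on 1 library.

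BTS measured 6112 and 7029.6 normalized counts in med8med25, within the range of the Col-0 libraries, with a log2 change of -0.10 (95% interval -0.40 to 0.21, limma adjusted p = 0.63). PYE measured 557.0 and 584.7, below both Col-0 libraries but not called (-0.28, adjusted p = 0.076). ILR3 measured 3693 and 3570.4, also below both and not called (-0.15, adjusted p = 0.13).

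Set directly against each other, the mutants differed in 7 of the 10 genes, all higher in med8med25. Of all genes tested 41.4% were called in this comparison, 20.9% higher and 20.5% lower, and the median log2 difference was 1.49 over the 10 and -0.01 over all genes. Libraries did not overlap for 10 of the 10, as for 70.4% of all genes, and a call of at least 1 higher was made for 6 and for 4.49% of all genes. The subgroup Ib genes were 2.65 to 3.49 higher on the log2 scale, with BHLH39 (SE 0.35, limma adjusted p = 1.8e-04) at the top and BHLH101 (SE 0.42, adjusted p = 0.0016) at the bottom. BHLH38 differed by 2.86 (adjusted p = 0.0015) and BHLH100 by 2.83 (adjusted p = 0.0013). The BHLH101 difference was 1.85 without the second med8med25 library and 3.45 without the first, and it stayed called.

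The 3 ligase genes were also higher in med8med25 than in hac1hac5, BTS by 1.08 (SE 0.13, limma adjusted p = 4.7e-04), BTSL1 by 1.90 (SE 0.14, adjusted p = 4.6e-05) and BTSL2 by 0.43 (SE 0.11, adjusted p = 0.016). The BTSL2 call was lost without the first hac1hac5 library (0.32, adjusted p = 0.11) and without the second med8med25 library (0.31, adjusted p = 0.059). FIT, PYE and ILR3 were not called, at -0.11 (95% interval -0.41 to 0.19), 0.23 and -0.08 (-0.23 to 0.07). FIT was thus called higher than Col-0 in each mutant, with no difference called between the mutants.

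The subgroup Ib genes also stood out by how far the 2 libraries of 1 genotype differed. In Col-0 the second library exceeded the first by 1.25 on the log2 scale for BHLH38, by 1.07 for BHLH39 and by 0.93 for BHLH100. Among 18049 genes with a mean of at least 50 normalized counts, 0.072%, 0.116% and 0.172% differed as much between these libraries, where the median absolute difference was 0.07. The BHLH38 reads gave a ratio of 2.38, with an exact 95% counting interval of 2.1 to 2.7, so the gap exceeded counting error. BHLH101, BTS and BTSL1 differed less, by 0.40, 0.42 and 0.35, and FIT by -0.07.

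The direction was not the same in every genotype. In hac1hac5 the second library was the lower one, with differences of -1.11 for BHLH38, -0.73 for BHLH39 and -1.14 for BHLH100, while BHLH101 differed by -0.10 and BTS by -0.04. In med8med25 the second library was again the higher one for all 4, with BHLH101 at 1.59, matched by 0.249% of genes. BHLH100 differed by 0.90, BHLH38 by 0.64 and BHLH39 by 0.47, and 1.41%, 3.34% and 7.97% of genes differed as much. The median absolute difference in med8med25 was 0.15, against 0.07 in Col-0. The library numbers are names and give no order. FIT, ILR3, PYE and BTSL2 differed by at most 0.22 in absolute value between the libraries of any genotype.

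**Figure D4:**
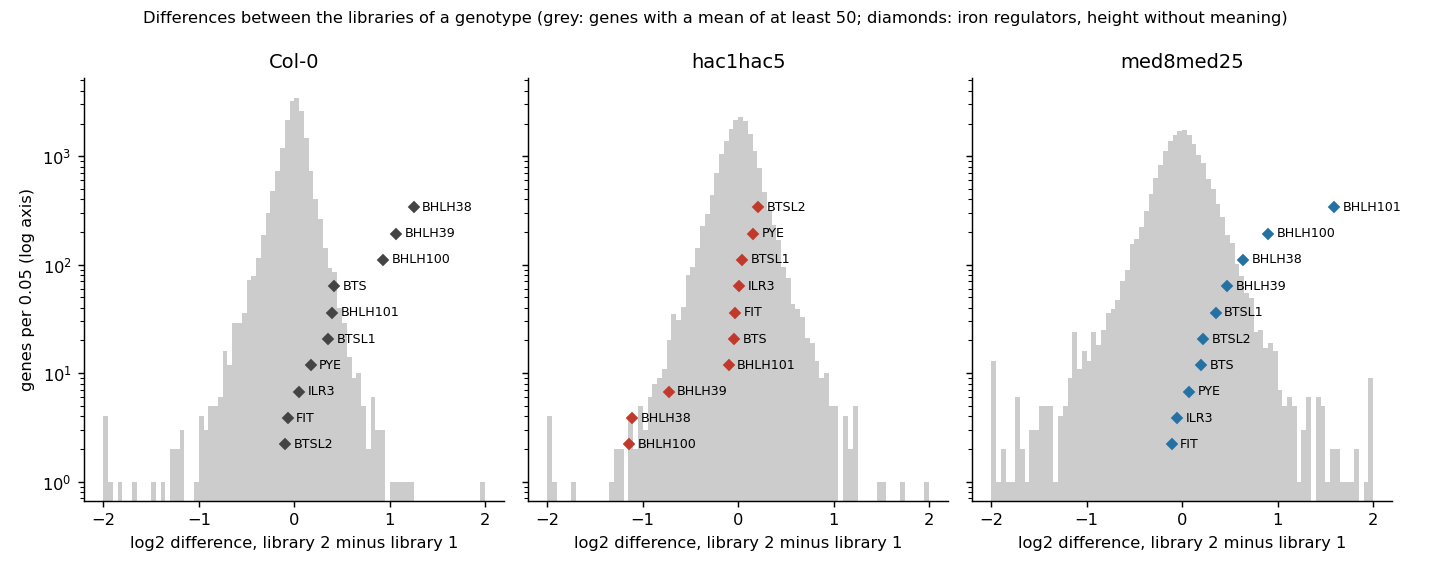
Log2 difference between library 2 and library 1 of each genotype, for 18049 genes with a mean of at least 50 normalized counts (grey histogram, log count axis) and for the 10 iron regulators (diamonds, height without meaning). BHLH38, BHLH39 and BHLH100 lie in the tails in Col-0 (0.93 to 1.25) and hac1hac5 (-1.14 to -0.73), and BHLH101 in med8med25 (1.59).

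Other genes of the pathway were counted from 4 lists. These held other iron bHLH regulators (called bHLH relatives), iron-deficiency peptide genes and shoot-type targets, FIT-dependent uptake genes, and iron storage or iron excess genes. The second list is called iron-deficiency genes as a label only. No group received an iron treatment, and whether each gene is induced by iron shortage was not tested. In hac1hac5, 9 of 14 iron-deficiency genes were lower than in Col-0 and 1 was higher, with a median log2 change of -0.89. Among 15 tested uptake genes 5 were lower and 2 higher (median -0.42), and of 11 storage or excess genes 4 were higher and 0 lower (median 0.61). All genes tested had a median of -0.02, with 21% called lower and 17.4% higher, so that the higher uptake genes were no more frequent than in the whole table. The 9 bHLH relatives were mixed, with 4 higher and 2 lower (median 0.35).

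Among the iron-deficiency genes, AT1G47400 fell from 209.4 and 323.4 normalized counts in the wild type to 91.7 and 60.4 (log2 change -1.79, limma adjusted p = 6.7e-04). AT1G47395 fell by 1.71 and AT2G30766 by 1.24 on the log2 scale (adjusted p = 0.0026 and 0.002). ORG1 fell by 1.59 and NAS4, a nicotianamine synthase gene and PYE target, fell by 1.17 (adjusted p = 3.6e-04 and 0.0019). NEET, an iron-sulfur protein gene of this list, went the other way and rose by 0.60 (adjusted p = 0.049). In med8med25 it changed by -1.26 (adjusted p = 0.0033), so that both directions were those of the ferritin gene FER1 given below.

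Uptake genes moved less evenly. IRT1, the main root iron transporter, had 486.6 and 867.0 normalized counts in the wild type and 394.2 and 437.8 in the mutant, a change of -0.64 that was not called (limma adjusted p = 0.075). FRO2, the root ferric reductase, had 157.2 and 263.2 in the wild type and 107.0 and 137.5 in the mutant, a log2 change of -0.74 (adjusted p = 0.038). CYP82C4, an enzyme of coumarin synthesis, fell by 1.74 and the transcription factor gene MYB10 fell by 1.60 (adjusted p = 0.0071 and 0.014).

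Ferritin genes encode iron storage proteins, and some of them, such as FER1, are induced when iron is plentiful. Of the 4 ferritin genes, 3 were higher in hac1hac5. FER1 had 2665 and 2470.7 normalized counts in the wild type, while hac1hac5 gave 9901 and 11411 and med8med25 gave 1011 and 726.6. The 3 genotypes did not overlap, and its log2 change was 2.05 in hac1hac5 (limma adjusted p = 2.1e-05) and -1.58 in med8med25 (adjusted p = 2.0e-04). FER3 rose by 1.3 in hac1hac5 (adjusted p = 3.7e-05), and the vacuolar iron transporter-like gene VTL1 rose by 1.19 (adjusted p = 0.034).

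The bHLH relatives were not lower as a group in hac1hac5. Of the close relatives of ILR3, BHLH34 was higher, by 1.07 (limma adjusted p = 1.3e-04), and BHLH115 was lower, at -0.29 (adjusted p = 0.028). BHLH104, also a close relative, was not called (0.16). BHLH121, an activator that works with them, was lower, at -0.23 (adjusted p = 0.036). Outside those close relatives, AT2G22760 showed the largest change of the list (adjusted p = 2.1e-04). It went from 2.92 and 0.0262 normalized counts in the wild type to 68.0 and 111.2. The change rests on near-zero values in Col-0. AT4G37850 was also higher, by 1.3 (adjusted p = 0.0018). In med8med25 the bHLH relatives counted 3 higher and 1 lower, with AT2G22760 higher by 3.14 and AT4G37850 by 1.0 (adjusted p = 0.0063 and 0.0098).

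In med8med25, 5 of the 14 iron-deficiency genes were higher than in Col-0 and 1, NEET, was lower, with a median of 0.30. Over all genes 12.3% were higher and 14.3% lower. AT1G47395 rose by 1.16 and the nicotianamine synthase gene NAS2 by 1.33 (limma adjusted p = 0.024 and 0.029), whereas AT1G47400 (0.62) and AT2G30766 (0.23) were not called. Of the 15 uptake genes 3 were higher and 1 lower (median 0.29), the first count above and the second below those shares. FRO2, at 417.7 and 482.6 normalized counts, rose by 1.14 (adjusted p = 0.0094), and IRT1, at 768.5 and 1065, was not called (0.48, adjusted p = 0.2).

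Of the storage and excess genes 6 of 11 were lower in med8med25 and 0 higher (median -0.38), against a median of 0.0 over all genes. Besides FER1, these included VTL2, which fell by 2.27 (limma adjusted p = 4.4e-04), the nicotianamine synthase gene NAS3, which fell by 1.99 (adjusted p = 6.5e-04), and the metal-nicotianamine transporter gene YSL1, which fell by 1.5 (adjusted p = 9.6e-04). Between the mutants, 10 of 14 iron-deficiency and 7 of 15 uptake genes were higher in med8med25 and 1 and 0 lower. In the storage list 9 of 11 genes were lower and 0 higher, where 20.9% of all genes were higher and 20.5% lower. FER1 differed by -3.63 (adjusted p = 2.9e-06) and IRT1 by 1.12 (adjusted p = 0.008).

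The same comparison of the mutants gave further large differences among the named genes, on the log2 scale. NEET was lower in med8med25, at -1.86 (limma adjusted p = 2.8e-04). The other named genes of the iron-deficiency and uptake lists were higher there. AT1G47395 differed by 2.86, AT1G47400 by 2.41 and NAS4 by 1.80, and OPT3, an iron transporter gene of the phloem, differed by 1.41 (limma adjusted p = 1.1e-04 to 2.4e-04). Among uptake genes CYP82C4 differed by 2.75, FRO2 by 1.88 and MYB10 by 1.2 (adjusted p = 7.9e-04, 5.2e-04 and 0.042). In the storage list VTL2 differed by -2.88, FER4 by -1.66 and FER3 by -1.36 (adjusted p = 7.2e-05, 3.8e-05 and 4.4e-05). Of the bHLH relatives, of which 1 was higher and 3 lower, AT2G22760 differed by -2.31 and NAI1 by -1.08 (adjusted p = 0.015 and 2.0e-04).

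**Figure D5:**
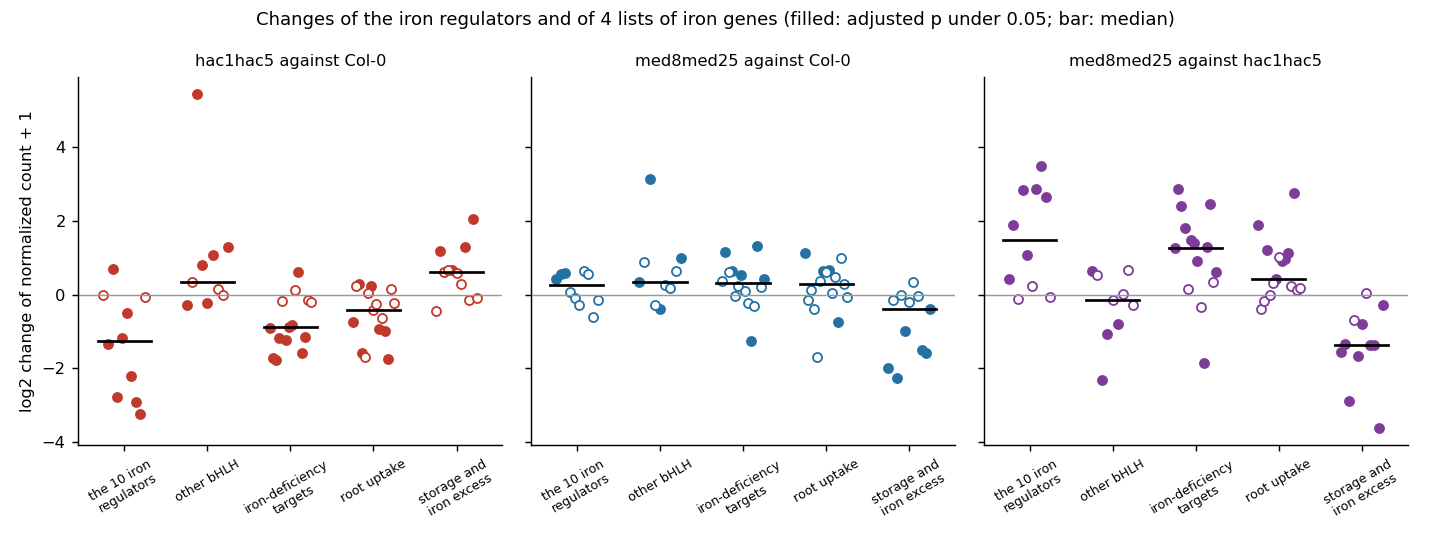
Log2 changes of the 10 iron regulators and of 4 lists of other iron genes in the 3 comparisons, 1 point per gene, filled where the limma adjusted p was under 0.05, with bars for medians. In hac1hac5 the medians are -1.26 for the regulators, -0.89 for iron-deficiency genes and 0.61 for storage genes. In med8med25 they are 0.25, 0.30 and -0.38.

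Several of these genes act in the root epidermis, and markers of the tissues in a seedling were read in the same comparisons. Of 8 root hair markers 6 were lower in hac1hac5 and 0 higher (median log2 change -0.79), where 21% of all genes were lower. RSL2 and RHS19 had the largest changes, -1.32 and -1.07 (limma adjusted p = 0.0052 and 3.0e-04). In med8med25 2 were higher and 1, RSL2, was lower (-1.48, adjusted p = 0.0051), with a median of 0.14. The summed level of the list was 6638 and 5962 normalized counts in the wild type, while hac1hac5 gave 3393 and 3699.7 and med8med25 gave 7470.0 and 8508.5. Between the mutants 6 were higher in med8med25 and 0 lower, among them PRP3 by 1.41, RHS8 by 1.28 and LRX1 by 1.02 (adjusted p = 3.5e-05, 7.9e-04 and 1.7e-04).

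Of 10 other root markers 2 were lower and 0 higher in hac1hac5, a share at the background (median -0.07). In med8med25 3 were higher and 4 lower (median -0.12), where 12.3% of all genes were higher and 14.3% lower. CASP1, CASP2 and PER64 were higher, by 0.74, 0.64 and 0.46. ESB1, THAS1, PYK10 and TIP2;3 were lower, at -1.44, -1.38, -1.18 and -1.08 (limma adjusted p = 0.038, 7.2e-05, 3.1e-04 and 4.5e-04). The ESB1 value rested on 6 and 7 reads in med8med25. The summed level was 63858 and 63047 in the wild type, while hac1hac5 gave 47286 and 54637 and med8med25 gave 31422 and 30765, but PYK10 alone made up 80.9 to 90.9% of it in the 6 libraries. Of 6 green tissue markers 1 was lower in each mutant and 0 higher (medians -0.50 and -0.33). This was near the shares of all genes called lower, 21% in hac1hac5 and 14.3% in med8med25. Their sums were 1788200 and 1837900 in the wild type, while hac1hac5 gave 1346500 and 1328800 and med8med25 gave 1429100 and 1141600. No marker was at 0 in any genotype, and the part of tissue composition in the changes of the iron regulators was not tested. Of the 10 iron regulators, 7 were called lower and 1, FIT, higher in hac1hac5, against 21% and 17.4% of all genes. In med8med25 0 were lower and 3 higher, against 14.3% and 12.3%.

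Genes with the most similar profiles were sought over the 6 libraries, as a description. Likeness was the root mean square difference between centred log2 profiles, over 23888 other tested genes, a measure that depends on the size of the changes as well as on their shape. Nearest to the mean of the 4 subgroup Ib genes were AT3G10590 (0.31), AT4G22170 (0.34), AT1G13609 (0.38), AT3G05858 (0.39) and AT1G12070 (0.39). Of these, AT1G13609 was well expressed, at 1447 and 2541 normalized counts in the wild type, while hac1hac5 gave 634.8 and 429.9 and med8med25 gave 2407 and 4049. The other 4 stayed below 17 normalized counts in every library, so that their profiles rest on few reads.

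Closer matches were found for BTS. AT2G38380 lay at 0.07, with 4069 and 4853 normalized counts in the wild type, while hac1hac5 gave 2091 and 1933 and med8med25 gave 3954 and 4226. The auxin transporter gene PIN6 and the mitogen-activated protein kinase gene ATMPK13 lay at 0.11, AT4G03500 at 0.12 and GA3OX1, a gibberellin synthesis gene, at 0.13.

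Another scaling changed the split of calls over the whole table. When each library was scaled to the same total, the median change of all genes became 0.16 in hac1hac5 and 0.15 in med8med25. The calls in hac1hac5 went from 4156 higher and 5010 lower to 6017 higher and 2874 lower, and those in med8med25 from 2929 higher and 3421 lower to 5258 higher and 1989 lower. The same 8, 3 and 7 regulators were called in the 3 comparisons, with PYE near the threshold in hac1hac5 (-0.32, limma adjusted p = 0.0498). The uncalled values of ILR3 in both mutants and BTS in med8med25 changed sign under it.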

How the data were processed

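RNA-seq of 3 genotypes with 2 libraries each was analysed from 1 table of 32548 gene rows. HISAT2, featureCounts and edgeR and the build TAIR10 are named in the submitters' processing notes. For these tools, version, annotation and strand setting are not given in the sources used here. As deposited, the values are a normalized signal per gene and library, read counts that the authors adjusted to a common library size, not whole reads. All 195288 values (100.0%, relative tolerance 1e-06) were matched by a quantile adjustment of whole reads with dispersion 0.00697, and these reads gave the depth. Because reads carry no molecular identifiers, counting intervals cover counting error only.

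limma 3.58.1 in R 4.3.3 was run with a mean-variance trend on log2(value + 1), a scale that understates changes of low genes. The fit held the 23898 genes that reached 1 in 2 or more libraries. All 6 libraries shared the spread (3 residual and 5.3 prior degrees of freedom). P-values were two-sided, adjusted by Benjamini-Hochberg over all genes and called under 0.05. The fit was tested on simulated data. Other pseudocounts, filters, scalings, voom on the recovered reads, a replicate block and leaving out each library were alternatives. Levels per kb used RefSeq exon lengths.

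Members and lists were chosen with earlier results of these data known. Named from each list were called genes with an absolute log2 change of at least 1, at most 4 per comparison by adjusted p, plus AT1G47400, AT1G47395, AT2G30766, IRT1, FRO2 and FER1. CASP1, CASP2, PER64 and, in hac1hac5, BHLH115, BHLH104 and BHLH121 were named after their values were seen. So was NEET in hac1hac5 and between the mutants. Names follow the RefSeq gene table of TAIR10.1, and genes it does not name are given by identifier.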

Additional observations from a re-analysis of the deposited data

How the results depend on the processing

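Over 16 alternative settings, 458 of 480 log2 changes of the 10 iron regulators kept their direction and side of the threshold, 11 lost and 1 gained a call, and 10 changed sign. None of those 10 was called. With each library scaled to its total, ILR3 became 0.11 in hac1hac5 and 0.009 in med8med25, and BTS 0.06 in med8med25. Without 1 library, BTSL2 in hac1hac5 became -0.05 (second Col-0) or -0.1 (second hac1hac5). In med8med25, BHLH100 became -0.4 (first Col-0) or -0.38 (second med8med25), within a leave-one-out range of -0.4 to 0.53. BHLH101 became 0.2 (first med8med25) in a range of -1.4 to 0.2, and BTS 0.11 (second Col-0) or 0.003 (first med8med25) in a range of -0.31 to 0.11. These settings use fewer samples, and the lone library is assumed to vary like the other genotypes. The cause of the sign changes was not tested.

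Leaving out 1 library at a time gave 7 to 8 regulators called in hac1hac5, 0 to 3 in med8med25 and 6 to 7 between the mutants. The whole-table counts ranged from 5203 to 10667, from 2559 to 6877 and from 6853 to 9958. The lowest counts against Col-0, where all 6 libraries gave 9166 and 6350, came without a Col-0 library (5588 and 5203 in hac1hac5, 2706 and 2559 in med8med25).

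No label gives a shared origin of libraries with the same replicate number. Deviations of same-numbered libraries correlated at -0.011, -0.131 and -0.228 over 18049 genes, so they did not deviate in the same direction. These correlations cannot decide whether any libraries were handled together. With the replicate block 8, 3 and 7 regulators and 8234, 5357 and 9004 genes were called. A crossed block, with the med8med25 numbers swapped and chosen after seeing the data, gave 8, 3 and 7 regulators and 9361, 6732 and 10176 genes.

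With 2 libraries per genotype, values rest on few samples, and no group was large enough for an outlier test. Depth was least limiting for ILR3 and BTS, and the lowest regulator value rested on 55 reads.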
